A study of Mus musculus with 15 samples.

Results

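STAG1 and STAG2 are paralogous proteins of which each cohesin complex carries only 1. Cells that lacked STAG2 and were depleted of STAG1 by siRNA were compared by polyA RNA-seq with WT cells that received control siRNA. The comparison uses 6 of the 15 libraries of the study, all those with the labels Stag2-KO siStag1 (3 libraries) and WT siGLO (3 libraries). WT cells are the v6.5 line of male mouse embryonic stem cells (mESCs), grown on gelatin without a feeder layer named in the labels, and siGLO is a non-targeting siRNA that serves as transfection control. Stag2-KO cells are v6.5 cells from a single CRISPR clone with a deletion in Stag2, an X-linked gene. The study calls the deletion homozygous, although the line is male. Here these cells were transfected with siRNA against Stag1. All wells received 50 nM siRNA and were collected after 48 h. The libraries Stag2-KO siGLO and WT siStag1, 3 of each, hold the separate perturbations and are given beside the dual depletion where a gene turns on them. Because all 3 dual-depleted libraries come from 1 clone and nothing in the labels says that replicates were separate cultures, p-values measure only the spread between these libraries, and the loss of STAG2 cannot be told apart from other properties of the clone.

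Cohesin is a ring of SMC1, SMC3 and RAD21 that extrudes loops of chromatin until it meets CTCF, and it also holds sister chromatids together. STAG proteins bind this ring and are needed for its stable association with chromatin. In mESCs the genes for cell identity lie near clustered enhancers inside cohesin-anchored loops, and these cells can be maintained in a naive state by LIF or pass through a formative state towards the primed epiblast of the implanted embryo.

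Between 16309144 and 19005726 counts per library fell on genes (median 17413433), so 3 counts, taken as the smallest visible level, correspond to 0.158 to 0.184 CPM, which covers counting error only. Values below are normalized counts (TMM-scaled and brought to a common depth) in replicates 1, 2 and 3, and a gene is called where its edgeR p, adjusted by the Benjamini-Hochberg method over the 14508 genes tested, was under 0.1. Replicate 1 of the dual-depleted cells stood apart from the other replicates, with a median absolute log2 difference of 0.244 and 0.281 from replicates 2 and 3, which differed from each other by 0.135. The same held for replicate 1 of Stag2-KO siGLO (0.242 and 0.264, against 0.169 between the other replicates). Chromosome 8 carried lower values in the clone: the median log2 fold change of its 760 tested genes was -0.23 in dual-depleted and -0.21 in Stag2-KO siGLO cells, but 0.0012 in WT siStag1 cells. The Y-linked gene Ddx3y had 52.2, 63.9 and 40.6 normalized counts in WT siGLO and 11.8, 7.27 and 19.2 in dual-depleted libraries. Over the 4 Y-linked genes tested the median log2 fold change was -2.14 in dual-depleted, -2.23 in Stag2-KO siGLO and 0.14 in WT siStag1 cells. Whether the copy number of these chromosomes in the clone takes part in any result was not tested. Fibroblast markers, which feeder cells would carry, summed to 545 to 909 normalized counts in WT siGLO and 733 to 851 in dual-depleted libraries, and Lum, Postn and Fap had at most 3 counts in every library.

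**Figure D1:**
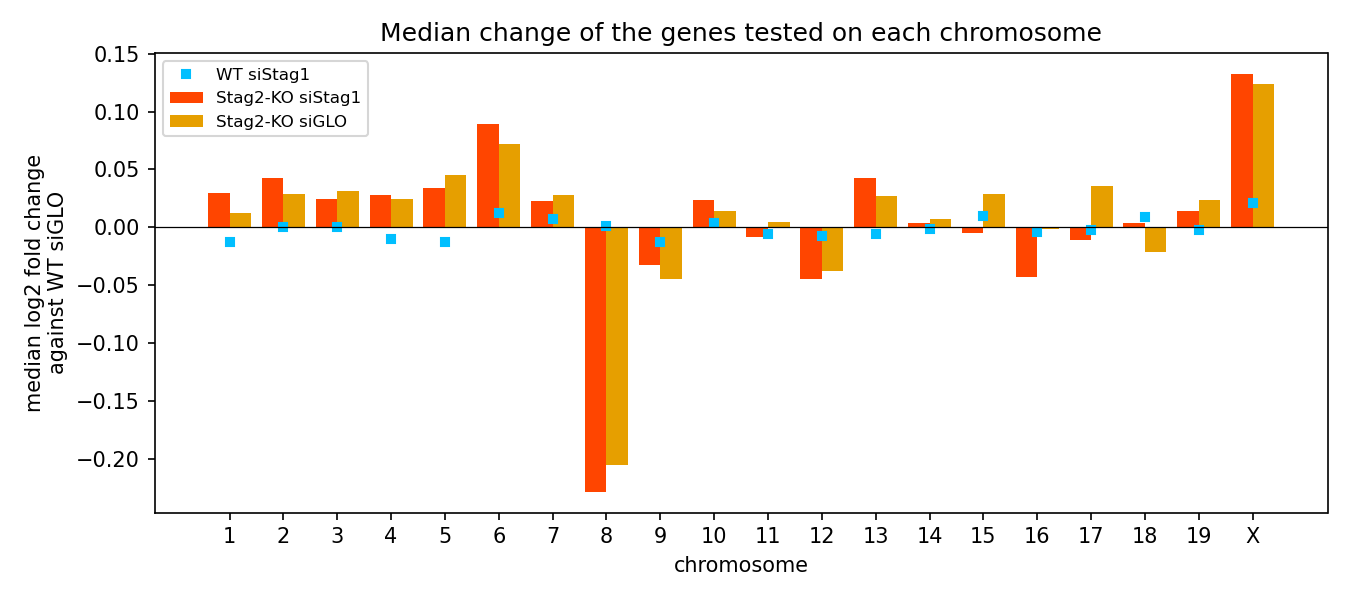
Median log2 fold change against WT siGLO (vertical axis) of the genes tested on each chromosome (horizontal axis), for dual-depleted cells (Stag2-KO siStag1) and Stag2-KO siGLO (bars) and for WT siStag1 (squares). Chromosome 8 lies at -0.23 and -0.21 in the Stag2-KO libraries and near 0 in WT siStag1. Chromosome X lies at 0.13 in dual-depleted cells, 0.12 in Stag2-KO siGLO and 0.021 in WT siStag1.

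Both targeted genes were low. Normalized Stag1 counts were 2283, 2133 and 2008 in WT siGLO and 666, 779.6 and 628 in dual-depleted libraries (log2 fold change -1.63, SE 0.14, edgeR adjusted p = 2.44e-07), and Stag1 lies at chr9:100597798-100959375 on mm10. Stag2, at chrX:42149317-42277185, had 2324, 2329.6 and 2324 normalized counts in WT siGLO and 849, 929 and 939 in dual-depleted libraries (log2 fold change -1.36, SE 0.12, edgeR adjusted p = 3.6e-07). Residual Stag2 counts were higher after siStag1 than in Stag2-KO siGLO (662, 738 and 673, edgeR adjusted p = 0.0808), and they say nothing of protein since reads outside the deleted part are still counted. Of 20 cohesin genes and regulators in the files 19 were tested, 4 rose and 4 fell, a share called (42.1%) near that of all genes (43.9%). Besides the targets, Stag3, the germ cell paralog, fell by 0.85 on the log2 scale (SE 0.16, edgeR adjusted p = 0.000656) and Esco2, an acetyltransferase that locks cohesin on replicated DNA, by 0.63 (SE 0.12, edgeR adjusted p = 0.000684). The loader gene Nipbl rose by 0.25 (SE 0.09, edgeR adjusted p = 0.0322), the regulator Pds5b by 0.30 (SE 0.10, edgeR adjusted p = 0.0325), the meiotic kleisin gene Rec8 by 0.55 (SE 0.21, edgeR adjusted p = 0.0578) and the CTCF paralog Ctcfl by 1.74 (SE 0.51, edgeR adjusted p = 0.0138). Of these 4 rises only that of Ctcfl held without any 1 library: Rec8 was not called without dual-depleted replicate 2 or 3 or WT replicate 1 or 2, Pds5b without replicate 3 of either group and Nipbl without WT replicate 3, with edgeR adjusted p from 0.11 to 0.215. The log2 fold changes of the ring genes Smc1a (0.10), Smc3 (-0.01) and Rad21 (-0.11), of Ctcf (0.06) and of the release factor gene Wapal (-0.19) did not pass the test, although Wapal was called lower (-0.28) without dual-depleted replicate 1.

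Across the genome 6364 genes (43.9%) were differentially expressed, of which 3274 were higher (22.6%) and 3090 lower (21.3%). These shares are the background for every gene group below. The median log2 fold change over all tested genes was 0.0055, the median absolute value among called genes was 0.66, and 1151 genes (7.93%) rose and 957 (6.6%) fell past a log2 fold change of 1. The largest rises and falls were taken among called genes that averaged 50 or more normalized counts and whose groups did not overlap. Groups did not overlap in 47.3% of all genes tested. Zeb2, a repressor of epithelial genes, had 56.0, 27.4 and 38.6 normalized counts in WT siGLO and 309.8, 453 and 1011 in dual-depleted libraries (log2 fold change 3.85, SE 0.45, edgeR adjusted p = 9.3e-06), and the chemokine gene Cxcl12 from 55.0, 67.0 and 85.0 to 618, 1234 and 987 (log2 fold change 3.78, SE 0.30, edgeR adjusted p = 1.85e-07). Rises of 4.88 in Pcdh18, 4.43 in Gdpd2, 4.37 in Zfhx4, 4.16 in the long noncoding RNA Miat, 3.86 in Mmp25, 3.81 in the heparin-binding growth factor gene Ptn, 3.75 in Jakmip2 and 3.74 in Gbp7 were of similar size on the log2 scale. The dual-depleted replicates spread widely, and replicate 1 was the lowest of them in all 12 genes with the largest rise. Without dual-depleted replicate 3 the log2 fold change was 3.22 for Zeb2, and without WT replicate 1 it was 5.01 for Zfhx4.

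Among the falls, Slc13a5, a citrate transporter gene, had 207, 245 and 256 normalized counts in WT siGLO and 5.90, 8.30 and 5.05 in dual-depleted libraries (log2 fold change -5.18, SE 0.31, edgeR adjusted p = 1.1e-08). Inhbb, which encodes a subunit of activin B, dropped from 1612, 1554 and 1306 to 50.2, 64.4 and 34.3 (log2 fold change -4.91, SE 0.26, edgeR adjusted p = 2.94e-09). Prdm14, a repressor of FGF signalling and of differentiation genes in naive cells, lies at chr1:13113457-13127163 and dropped from 469, 418 and 438 to 9.84, 38.4 and 34.3 (log2 fold change -4.01, SE 0.28, edgeR adjusted p = 5.04e-08). The remaining members of the 12 largest falls were Nkx6-3 (-4.31, on chromosome 8), 2210409E12Rik (-4.17), the prostaglandin transporter gene Slco2a1 (-4.13), 9930013L23Rik (-4.06), the adhesion gene Ceacam1 (-3.95), Pou2f3 (-3.74), the oocyte-type gene Nlrp4f (-3.56), Tfcp2l1 (-3.46) and Serpinb6c (-3.37), all as log2 fold changes. Without dual-depleted replicate 1 the value of Nkx6-3 was -5.19 and that of Slco2a1 -4.72.

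**Figure D2:**
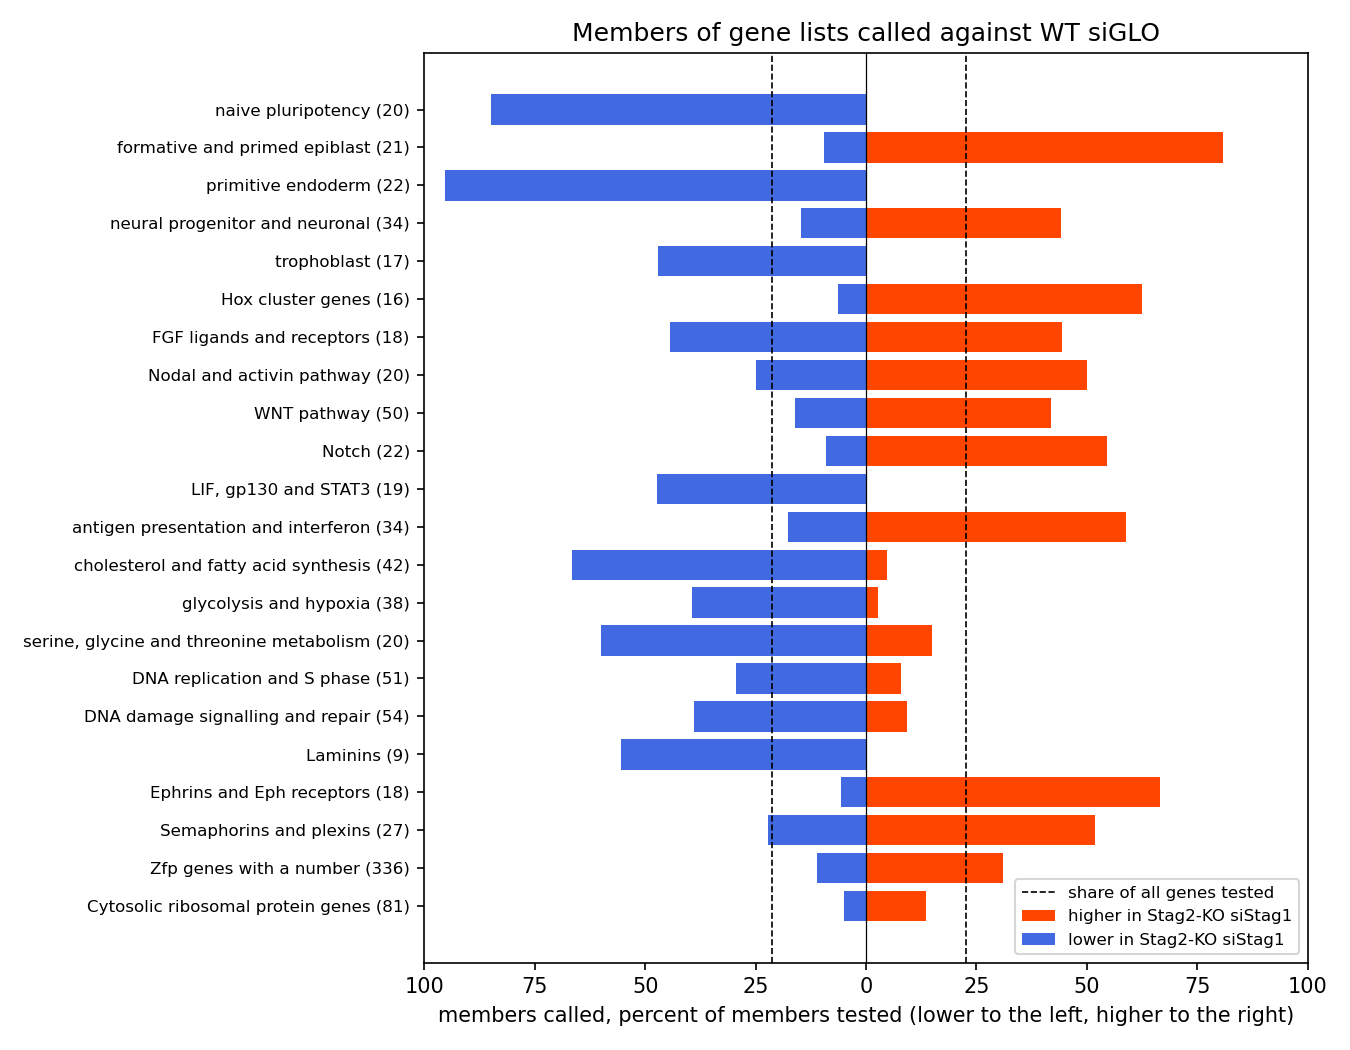
Share of tested members called higher (right) and lower (left) in dual-depleted against WT siGLO cells (horizontal axis, percent of members) in 22 gene lists and families (rows, with the number tested), with dashed lines at the shares of all genes, 22.6% and 21.3%. Primitive endoderm and naive pluripotency genes lie far to the left, with 21 of 22 and 17 of 20 members lower, and formative genes to the right, with 17 of 21 higher.

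Naive pluripotency genes fell as a group. Of 21 listed genes in the files 20 were tested, 17 fell and 0 rose, with a median log2 fold change of -1.75. Tfcp2l1, a transcription factor that maintains the naive state downstream of LIF and STAT3, lies at chr1:118627945-118685168 and had 7597, 7531 and 8046 normalized counts in WT siGLO and 676, 732 and 702 in dual-depleted libraries (log2 fold change -3.46, SE 0.15, edgeR adjusted p = 7.3e-10). Esrrb, an orphan nuclear receptor of the same circuit at chr12:86361117-86521628, went from 12391, 11006 and 11349 to 1328, 2139 and 2108 (log2 fold change -2.64, SE 0.15, edgeR adjusted p = 5.07e-09). Tbx3 went from 2175, 2006 and 2234 to 188, 282 and 243 (log2 fold change -3.17, SE 0.14, edgeR adjusted p = 7.3e-10). In these factors all 3 dual-depleted libraries lay far below all WT libraries. The reprogramming factor Klf4 had 3840.4, 3851 and 3985 in WT siGLO and 646, 844 and 1137 in dual-depleted libraries (log2 fold change -2.15, SE 0.16, edgeR adjusted p = 8.47e-08). The AKT coactivator gene Tcl1 fell by 2.37 (SE 0.17, edgeR adjusted p = 7.88e-08). Klf5 (-1.84), Nr5a2 (-1.47), Klf2 (-0.85, on chromosome 8) and Nr0b1 fell as well. The 3 members not called were Dppa3, Gbx2 and Mael, with log2 fold changes of 0.20, 0.63 and 0.51 and adjusted p of 0.414, 0.107 and 0.107 in edgeR. Members named for going against their list, here and below, were picked after their values were seen. Gbx2 and Mael were called higher without WT replicate 1. Gbx2 was called higher also without dual-depleted replicate 2.

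General pluripotency genes did not move one way: of 16 tested, 6 rose and 6 fell. Pou5f1, which encodes OCT4, had 21491, 19659.6 and 18969 normalized counts in WT siGLO and 19451, 15738 and 13149.6 in dual-depleted libraries, a fall of only 0.31 on the log2 scale (SE 0.13, edgeR adjusted p = 0.0677). Sox2, its DNA-binding partner, fell from 8852, 9412 and 9453 to 6411, 6407 and 6977 (log2 fold change -0.49, SE 0.09, edgeR adjusted p = 0.000357). Nanog had 5589, 4917 and 5004 in WT siGLO and 586, 2338 and 2177 in dual-depleted libraries (log2 fold change -1.61, SE 0.35, edgeR adjusted p = 0.00187). Replicate 1 lay far below the other dual-depleted replicates for Nanog, whose log2 fold change without it was -1.20. Zfp42, which encodes REX1 and lies on chromosome 8, fell by 1.74 (SE 0.14, edgeR adjusted p = 2.34e-07), the ligand gene Fgf4 by 1.95 (SE 0.12, edgeR adjusted p = 1.73e-08) and Dppa5a by 1.05 (SE 0.19, edgeR adjusted p = 0.000435). The let-7 inhibitors Lin28a and Lin28b rose by 0.74 (SE 0.13, edgeR adjusted p = 0.000269) and 1.04 (SE 0.11, edgeR adjusted p = 4.41e-06). Without dual-depleted replicate 1, the 6 rises became 3, and the fall of Pou5f1 was not called without dual-depleted replicate 2 or 3 or WT replicate 1 or 2 (edgeR adjusted p up to 0.288).

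Genes of the formative and primed epiblast rose. All 21 listed genes were tested, of which 17 rose and 2 fell, with a median of 1.30. Lef1, a WNT effector that also marks the epiblast, had 263, 133 and 208 normalized counts in WT siGLO and 3194, 1581 and 2006 in dual-depleted libraries (log2 fold change 3.49, SE 0.28, edgeR adjusted p = 1.85e-07). The neural and epiblast factor Sox3 went from 141, 101 and 123 to 877, 891 and 1030.4 (log2 fold change 2.94, SE 0.20, edgeR adjusted p = 4.75e-08), and Sall2 from 286, 205 and 173 to 1469.5, 1982 and 2051 (log2 fold change 3.05, SE 0.24, edgeR adjusted p = 1.31e-07). The groups were separated by several-fold in each. Fgf5, the classical marker of the epiblast, stayed low in absolute counts and rose from 10.3, 11.2 and 7.73 to 87.5, 104 and 110.0 (log2 fold change 3.35, SE 0.38, edgeR adjusted p = 7.01e-06). The kinase gene Pim2 rose by 2.56 (SE 0.24, edgeR adjusted p = 7.74e-07), Zic2 by 2.20 (SE 0.24, edgeR adjusted p = 3.62e-06) and Otx2, which drives the exit from the naive state, by 0.98 (SE 0.18, edgeR adjusted p = 0.000653). Against the group, the FGF targets Etv4 (-1.04) and Dusp9 (-1.11) fell, while Dnmt3l (-0.29) and Foxd3 (0.63) were not called. Without dual-depleted replicate 1, in which Etv4 was near its WT level, the log2 fold changes were -1.67 for Etv4, -0.68 for Dnmt3l, then called, and -0.09 for Foxd3, not called.

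**Figure D3:**
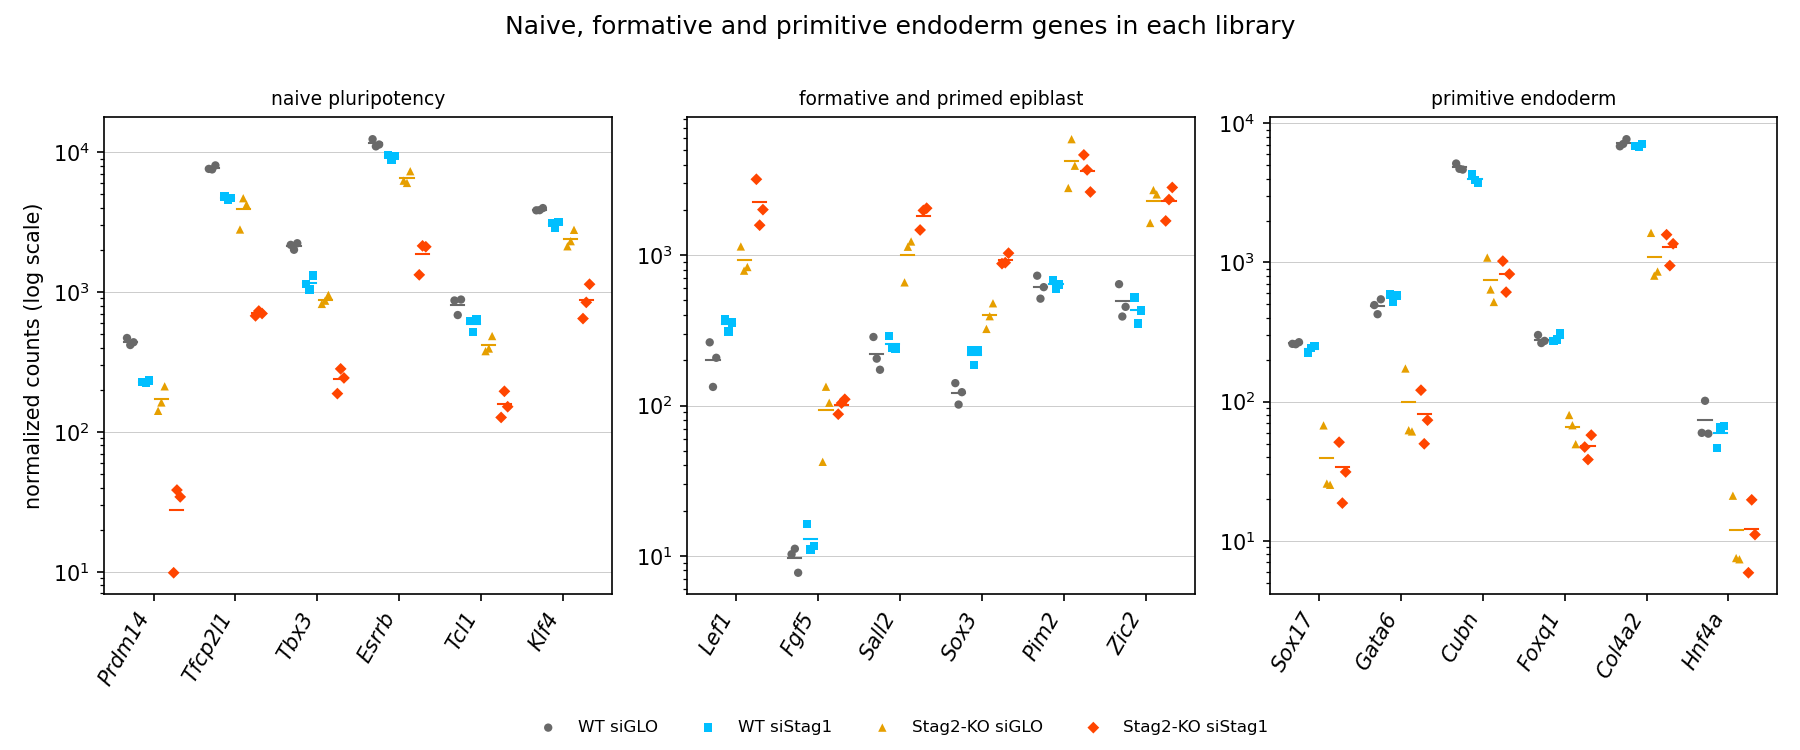
Normalized counts (vertical axis, log scale) of naive, formative and primitive endoderm genes in each library of the 4 groups named in the key, with lines at the group means. Dual-depleted libraries lie below all WT siGLO libraries for Tfcp2l1 and Esrrb and above them for Lef1 and Sox3.

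Primitive endoderm genes were lower almost throughout. Of 24 listed genes in the files 22 were tested, 21 fell and 0 rose, with a median of -2.07. Sox17 and Gata6, transcription factors that specify this lineage, had 260.3, 259 and 268 and 495, 425 and 544 normalized counts in WT siGLO, and 51.1, 18.7 and 31.3 and 121, 49.8 and 73.7 in dual-depleted libraries. Their log2 fold changes were -2.95 (SE 0.34, edgeR adjusted p = 7.17e-06) and -2.58 (SE 0.35, edgeR adjusted p = 3.95e-05), with replicate 1 the highest of the dual-depleted libraries in both. Gata4 (-2.21), the nuclear receptor gene Hnf4a (-2.58), the forkhead gene Foxq1 (-2.55) and Cubn (-2.56), an endocytic receptor of visceral endoderm, fell too. Only Lrp2, the partner receptor of cubilin, was not called, at 0.41 (edgeR adjusted p = 0.146), and without dual-depleted replicate 1 or WT replicate 1 it was the 1 member to rise. The summed level of the list was 86457 to 87624 in WT siGLO and 30366 to 35734 in dual-depleted libraries, beside 31547 to 36464 in Stag2-KO siGLO and 79451 to 82321 in WT siStag1. In bulk RNA, fewer cells of a type and less RNA per cell cannot be told apart.

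Several genes for the basement membrane that this lineage lays down were lower as well. Of 9 laminin genes tested 5 fell and 0 rose, with a median of -0.84, and Lama4 was called higher without dual-depleted replicate 1. Lama1 had 15101, 14883 and 14366 normalized counts in WT siGLO and 3451, 1956 and 3046 in dual-depleted libraries (log2 fold change -2.39, SE 0.19, edgeR adjusted p = 1.65e-07). Its partners in the main laminin of the early embryo, Lamb1 and Lamc1, fell by 1.38 (SE 0.12, edgeR adjusted p = 2.75e-07) and 1.47 (SE 0.11, edgeR adjusted p = 9.36e-08). Lamb2 fell by 0.84 (SE 0.17, edgeR adjusted p = 0.00128). The same libraries were low for the collagen IV genes Col4a1 and Col4a2, which lie on chromosome 8 and fell by 2.36 (SE 0.20, edgeR adjusted p = 3.62e-07) and 2.47 (SE 0.24, edgeR adjusted p = 1.31e-06), beside the chromosome median of -0.23. Nidogen, the linker between both networks, was lower at the gene Nid1 (3825, 3914 and 4269 in WT siGLO and 1668, 1257 and 1384 in dual-depleted libraries, log2 fold change -1.48, SE 0.12, edgeR adjusted p = 2.21e-07), and Sparc fell by 1.30 (SE 0.15, edgeR adjusted p = 9.78e-06). These belong to a list of other basement membrane genes, of which 24 were tested, 11 fell and 5 rose, with a median of -0.25. Thbs2, a thrombospondin gene, rose by 2.58 (SE 0.28, edgeR adjusted p = 4.02e-06) and the fibrillin gene Fbn1 by 1.35 (SE 0.23, edgeR adjusted p = 0.000252). Over the whole collagen family of 34 tested genes 12 rose and 4 fell, with Col26a1 (1.90) and Col8a2 (1.89) among the rises, and Col13a1 (-2.89) and Col20a1 (-2.14) fell beside the collagen IV genes.

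Other lineages changed less evenly. Of 34 neural progenitor and neuronal genes tested, 15 rose and 5 fell, with a median of 0.78. With at least 10 counts required in every library, 7 rose and 5 fell. The summed level of the list overlapped between groups, at 11660 to 14263 in WT siGLO and 13314 to 16111 in dual-depleted libraries. Pax6, a regulator of early neural cells at chr2:105668900-105697364, had 74.6, 37.5 and 40.6 normalized counts in WT siGLO and 363, 632 and 718 in dual-depleted libraries (log2 fold change 3.48, SE 0.33, edgeR adjusted p = 8.68e-07). Nes, an intermediate filament of neural progenitors, went from 745, 697 and 673 to 1769, 2393 and 2894 (log2 fold change 1.74, SE 0.20, edgeR adjusted p = 8.24e-06). The 5 falls in the list were Mapt from 619, 512 and 396 to 110.2, 79.9 and 69.6 (log2 fold change -2.55, SE 0.23, edgeR adjusted p = 7.16e-07), Olig2 by 1.56 (SE 0.15, edgeR adjusted p = 8.97e-07), Ncam1 by 1.53 (SE 0.32, edgeR adjusted p = 0.00155), Stmn2 by 1.15 and Hesx1 by 1.29. The homeobox cofactor gene Meis2 (1.96) rose, and so did 10 of 16 Hox cluster genes tested, of 39 listed, while 1 fell. The expression filter can be passed through 1 group alone. Where 10 counts were required in every library, 1 Hox gene rose and 1 fell. Hox levels stayed low: Hoxb3 had 4.67, 0 and 5.80 normalized counts in WT siGLO and 38.4, 65.4 and 102 in dual-depleted libraries (log2 fold change 4.23, SE 0.82, edgeR adjusted p = 0.000815). Hoxc13 was the member that fell (-0.68), which was not called without replicate 3 of either group and was joined by Hoxa11 without replicate 1 or 2 of either. Hesx1 was not called without dual-depleted replicate 1 or WT replicate 2 or 3 (edgeR adjusted p up to 0.124).

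Of 24 primitive streak and mesoderm genes tested, 3 rose and 8 fell. T, which encodes Brachyury, had 9.33, 11.2 and 6.76 normalized counts in WT siGLO and 52.1, 33.2 and 26.2 in dual-depleted libraries (log2 fold change 2.02, SE 0.64, edgeR adjusted p = 0.021), whereas Eomes fell from 186, 258 and 295 to 94.4, 78.9 and 97.9 (log2 fold change -1.44, SE 0.25, edgeR adjusted p = 0.000308). The other rises were in Fgf8 (3.70) and Wnt3 (1.57), and Fgf8 had 59.0, 233 and 217 in the dual-depleted libraries with replicate 1 lowest. Trophoblast genes were lower or not called, with 8 falls and 0 rises among 17 tested. The trophoblast regulator Tead4 had 647, 879.7 and 871 normalized counts in WT siGLO and 132, 151 and 144 in dual-depleted libraries (log2 fold change -2.49, SE 0.15, edgeR adjusted p = 8.11e-09), Tfap2c fell by 1.70 (SE 0.18, edgeR adjusted p = 2.67e-06) and Esx1 by 2.45 (SE 0.31, edgeR adjusted p = 1.77e-05). Elf5 and Tpbpa, which define trophoblast stem cells and spongiotrophoblast, had at most 3 counts in each of the 6 libraries. Keratins, the filament proteins of epithelia, fell at 7 of 11 members tested, with Krt17 going from 397, 433 and 295 to 61.0, 61.2 and 35.3 (log2 fold change -2.83, SE 0.25, edgeR adjusted p = 3.92e-07) and Krt42 from 334, 311 and 249 to 83.6, 51.9 and 49.4 (log2 fold change -2.27, SE 0.25, edgeR adjusted p = 5.53e-06). Keratins called lower numbered 4 without dual-depleted replicate 3 or without WT replicate 2.

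In the FGF family, a set of growth factors and their receptors, 18 genes were tested, 8 rose and 8 fell. Among ligands, Fgf4 dropped from 6355, 5445 and 5714 to 1479, 1749 and 1299.8 normalized counts (log2 fold change -1.95, SE 0.12, edgeR adjusted p = 1.73e-08) and Fgf3 fell by 2.06 (SE 0.27, edgeR adjusted p = 2.45e-05), while Fgf18 rose by 2.14 (SE 0.36, edgeR adjusted p = 0.000262). Among receptors, Fgfr2 had 189, 179.6 and 188 in WT siGLO and 587, 479 and 849.7 in dual-depleted libraries (log2 fold change 1.78, SE 0.17, edgeR adjusted p = 1.25e-06), and the coreceptor gene Klb fell by 3.27 (SE 0.34, edgeR adjusted p = 2.87e-06). Targets and feedback regulators of ERK were divided too, with 10 rises and 5 falls among 23 tested: Spred3 (2.18), Il17rd (1.17) and Etv1 (1.70) rose, and Phlda1 (-1.69), Dusp5 (-1.07), Etv4, Spry4 (-0.99) and Dusp4 (-0.47) fell.

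In the Nodal and activin pathway 10 of 20 tested genes rose and 5 fell. Lefty1, a secreted inhibitor and direct target of Nodal, had 3027, 1898 and 2247 normalized counts in WT siGLO and 7794, 10397 and 10482 in dual-depleted libraries (log2 fold change 2.00, SE 0.21, edgeR adjusted p = 2.34e-06). Nodal itself rose by 0.35 (SE 0.13, edgeR adjusted p = 0.04), and it was not called without dual-depleted replicate 2 (edgeR adjusted p = 0.225) or WT replicate 3 (0.162). The ligand subunit gene Inhbb, given above, and the proprotein convertase gene Pcsk6, which cleaves Nodal (1186, 1182 and 1175 and 462, 425 and 348, log2 fold change -1.52, SE 0.13, edgeR adjusted p = 2.44e-07), fell, as did the activin antagonist gene Fst (-1.03), Smad2 (-0.60) and Tgif1 (-0.43). Without WT replicate 1 the fall of Fst was not called (edgeR adjusted p = 0.122). BMP pathway genes were balanced, with 7 rises and 9 falls among 24. Bmp4 dropped from 317, 437 and 263 to 131, 72.7 and 54.5 (log2 fold change -1.97, SE 0.30, edgeR adjusted p = 0.000115), the receptor gene Bmpr1b rose by 3.19 (SE 0.42, edgeR adjusted p = 2.9e-05), and of the BMP-induced inhibitors of differentiation Id3 rose by 1.47 while Id4 fell by 1.20. Without dual-depleted replicate 1 the log2 fold change of the BMP modulator gene Bmper moved from -2.09 to -3.13, and without WT replicate 1 that of Id3 was 2.29.

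WNT pathway genes were higher more often than lower, with 21 rises and 8 falls among 50 tested and a median of 0.28. Of the secreted WNT antagonists, Sfrp1, on chromosome 8, had 3293, 3220.4 and 3599.9 normalized counts in WT siGLO and 469, 1162 and 1269 in dual-depleted libraries (log2 fold change -1.80, SE 0.28, edgeR adjusted p = 0.000111). Its paralog Sfrp2 did the reverse, from 248, 135 and 281 to 623, 1212 and 1289 (log2 fold change 2.23, SE 0.32, edgeR adjusted p = 6.15e-05), and Dkk1 fell by 3.01 (SE 0.51, edgeR adjusted p = 0.000284). The ligand gene Wnt11 fell by 3.03 (SE 0.37, edgeR adjusted p = 1.25e-05) and the receptor gene Ror1 rose by 2.64 (SE 0.41, edgeR adjusted p = 0.000134). In the LIF, gp130 and STAT3 pathway, which sustains mESC self-renewal, 9 of 19 genes fell and 0 rose, with a median of -0.42. The receptor genes Lifr (2466, 2364 and 2241 in WT siGLO, 1301, 1201 and 1407 in dual-depleted libraries, log2 fold change -0.85, SE 0.10, edgeR adjusted p = 6.27e-06) and Il6st (-0.69) were among them, as was the target Pim3 (-1.01). Gbx2, a target of STAT3, was called higher without dual-depleted replicate 2 or WT replicate 1. Notch pathway genes rose at 12 of 22 members and fell at 2, with a median of 0.67. The ligand genes Dll1 (1.22), Dll3 (1.50) and Jag1 (1.28) and the regulator Dtx4 (188, 174 and 172 in WT siGLO, 678, 717 and 1006 in dual-depleted libraries, log2 fold change 2.17, SE 0.17, edgeR adjusted p = 1.48e-07) rose, whereas the receptor gene Notch4 (-1.57) and Rbpj (-1.24), the DNA-binding effector of the pathway, fell.

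**Figure D4:**
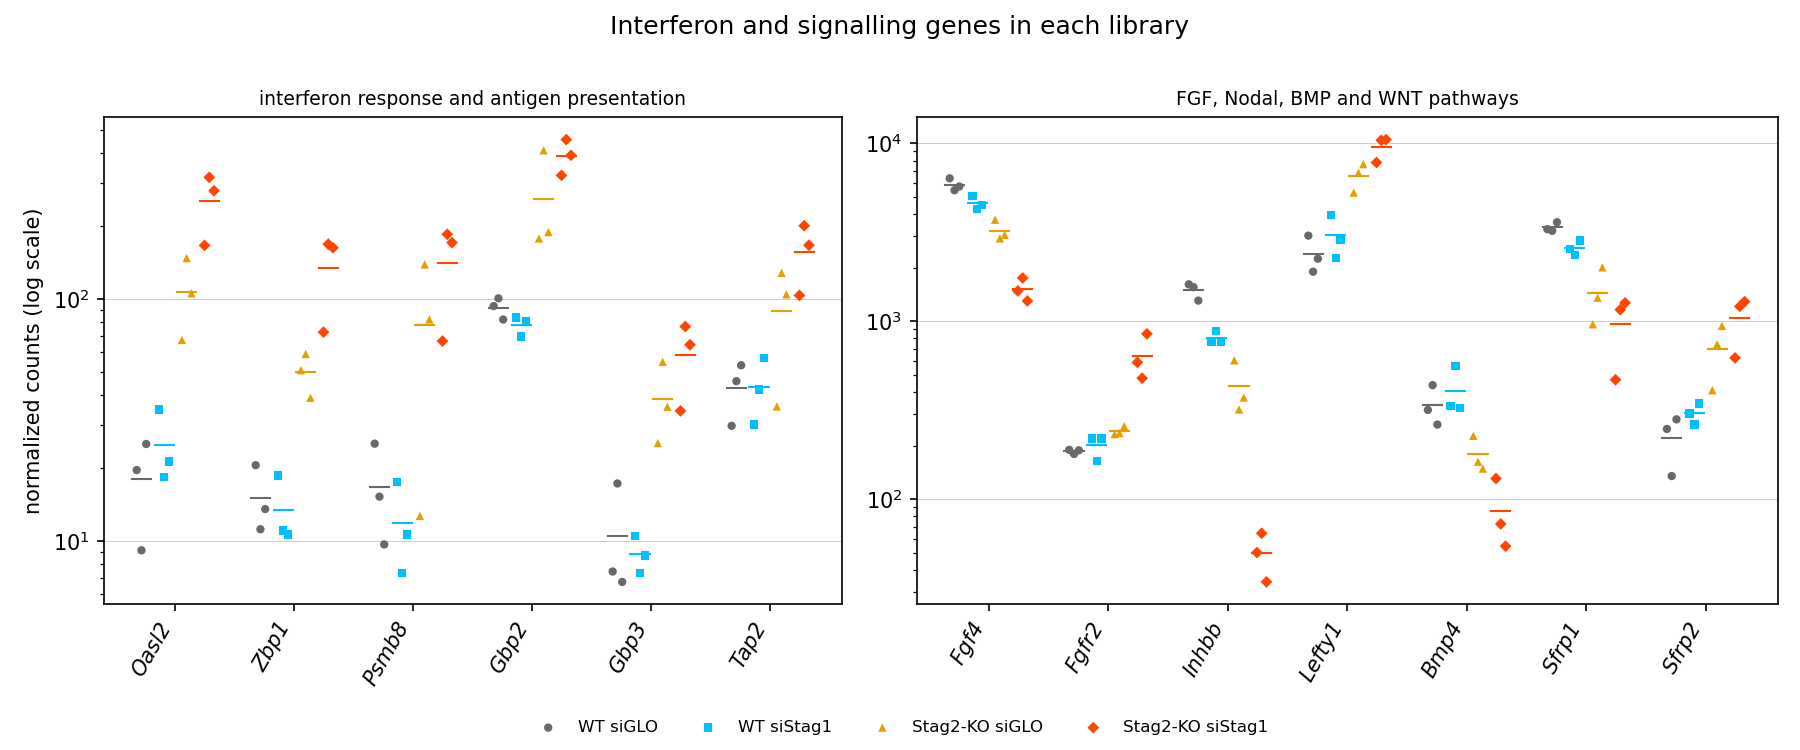
Normalized counts (vertical axis, log scale) of interferon and antigen presentation genes (left) and of FGF, Nodal, BMP and WNT pathway genes (right) in each library of the 4 groups in the key, with lines at the group means. Oasl2 lies at 9.13 to 25.1 in WT siGLO and 166 to 318 in dual-depleted libraries, and Sfrp1 and Sfrp2 change in opposite directions.

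Interferon-response and antigen presentation genes rose at 20 of 34 tested members and fell at 6, with a median of 0.48. With at least 10 counts required in every library, 13 rose and 7 fell. Summed levels of the list overlapped, at 14593 to 15740 in WT siGLO and 14330 to 17305 in dual-depleted libraries. Genes of this list sense foreign nucleic acids, answer interferon or present peptides to T cells. Oasl2, an oligoadenylate synthetase-like gene at chr5:114896936-114912234, had 19.6, 9.13 and 25.1 normalized counts in WT siGLO and 166, 318 and 279.5 in dual-depleted libraries (log2 fold change 3.81, SE 0.38, edgeR adjusted p = 1.81e-06). The nucleic acid sensor gene Zbp1 went from 20.5, 11.2 and 13.5 to 72.8, 168 and 162 (log2 fold change 3.14, SE 0.37, edgeR adjusted p = 8.9e-06), and the guanylate-binding protein gene Gbp2 from 93.3, 100.4 and 82.1 to 324, 455 and 392 (log2 fold change 2.08, SE 0.26, edgeR adjusted p = 1.44e-05). Genes that prepare peptides for MHC class I rose with them: Psmb8, a subunit of the immunoproteasome, by 3.06 (SE 0.62, edgeR adjusted p = 0.00113), and Tap2, a subunit of the peptide transporter, by 1.87 (SE 0.39, edgeR adjusted p = 0.00143). Dual-depleted replicate 1 was the lowest of its group for Oasl2, Zbp1, Psmb8, Gbp2 and Tap2. The transcription factor gene Irf1 rose by 1.46 (SE 0.15, edgeR adjusted p = 2.2e-06), while Stat2, a subunit of the factor that type I interferon activates, fell by 0.86 (SE 0.25, edgeR adjusted p = 0.0132). The synthetase genes Oas1a (-1.82) and Oas2 (-1.59) fell too, so paralogs of 1 family moved in opposite directions. Oas1a was at 87.7, 81.2 and 63.7 in WT siGLO, 19.7, 19.7 and 26.2 in dual-depleted, 27.9, 48.6 and 27.0 in WT siStag1 and 39.1, 82.8 and 61.1 in Stag2-KO siGLO libraries. All these wells, controls included, received siRNA.

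Interferon-stimulated genes commonly carry a response element with 2 copies of GAAA, separated by any 2 bases, near the start of transcription. Promoters of 33 of the 42 listed genes were matched by symbol in RefSeq (GRCm38.p6, 250 bases before to 50 after each start), and this motif was found on either strand in 17 of their 42 windows (40.5%), against 1131 of 32851 windows (3.44%) of all genes. It was present for 6 of 17 matched genes that rose, 4 of 5 that fell and 4 of 6 that were tested and not called. Whether the motif bears on the direction of change was not tested. The 150 bases before the start are printed for Gbp2 and Gbp3, which rose, and Oas1a, which fell, to show the motif beside changes of opposite direction. Capitals mark the matches, which overlap in Gbp3 and Oas1a, at chr3:142620513-142620662 (plus strand), chr3:142559894-142560043 (plus strand, the first of 2 listed starts, the window of the other holding no match) and chr5:120907526-120907675 (minus strand).
Gbp2: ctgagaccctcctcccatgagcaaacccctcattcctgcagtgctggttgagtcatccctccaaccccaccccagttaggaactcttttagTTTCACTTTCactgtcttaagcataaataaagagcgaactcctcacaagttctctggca
Gbp3: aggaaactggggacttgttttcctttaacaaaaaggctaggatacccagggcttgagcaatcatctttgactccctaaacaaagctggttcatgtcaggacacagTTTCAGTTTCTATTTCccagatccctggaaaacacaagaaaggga
Oas1a: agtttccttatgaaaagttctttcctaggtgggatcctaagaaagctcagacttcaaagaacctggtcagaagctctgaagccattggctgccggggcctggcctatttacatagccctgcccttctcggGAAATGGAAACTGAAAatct

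Among metabolic genes, sterol and fatty acid synthesis was lower: of 42 genes tested 28 fell and 2 rose, with a median of -0.46. Sc4mol, a demethylase of the cholesterol pathway on chromosome 8, had 2157, 2626 and 2809 normalized counts in WT siGLO and 700.3, 1084 and 1064 in dual-depleted libraries (log2 fold change -1.41, SE 0.19, edgeR adjusted p = 3.22e-05). Mvd, also on chromosome 8, fell by 1.14 (SE 0.14, edgeR adjusted p = 1.46e-05), and off this chromosome the isomerase gene Ebp by 1.00 (SE 0.13, edgeR adjusted p = 3.27e-05) and the desaturase gene Scd1 by 1.39 (SE 0.28, edgeR adjusted p = 0.00124). The lipase gene Pnpla3 fell by 2.39 (SE 0.31, edgeR adjusted p = 2.48e-05). The log2 fold changes of the sterol regulator genes Srebf1 (-0.24) and Srebf2 (-0.15) did not pass the test, though both were called lower without WT replicate 1 (-0.37 and -0.29). Fasn (0.26) was among the exceptions that rose, and it was not called without dual-depleted replicate 3 or WT replicate 1 or 2 (edgeR adjusted p up to 0.142). Serine, glycine and threonine metabolism fell at 12 of 20 genes and rose at 3. Tdh, the threonine dehydrogenase on which mESCs depend, had 6095, 5885 and 5013 in WT siGLO and 2165, 1462 and 1123 in dual-depleted libraries (log2 fold change -1.84, SE 0.17, edgeR adjusted p = 7.37e-07), the next enzyme gene Gcat fell by 0.82 (SE 0.10, edgeR adjusted p = 9.3e-06) and Phgdh by 0.53 (SE 0.09, edgeR adjusted p = 0.000206). Mthfd1l (0.35) and Mat2a (0.47) were among the rises, and 1 gene of the list was called higher without dual-depleted replicate 1. Mat2a lost its call without any 1 of the 6 libraries except WT replicate 1, with edgeR adjusted p up to 0.36.

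Glycolysis and hypoxia genes fell at 15 of 38 members and rose at 1. Pfkp, a glycolytic enzyme, went from 3905, 3599.9 and 5157 to 1789, 2278 and 1897 (log2 fold change -1.09, SE 0.14, edgeR adjusted p = 1.74e-05), the prolyl hydroxylase gene P4ha2 fell by 1.26 (SE 0.16, edgeR adjusted p = 1.57e-05) and Ndrg1 by 1.84 (SE 0.30, edgeR adjusted p = 0.000202). The single rise was Adm (1.48), whose call was lost without dual-depleted replicate 3 or WT replicate 1 (edgeR adjusted p = 0.111 and 0.174), whereas Pfkl was called beside it without dual-depleted replicate 1, and Pfkl and Slc16a3 without WT replicate 3. Lysosome and autophagy genes fell at 20 of 45 and rose at 7, including the kinase gene Ulk1 from 3032, 3666 and 4846 to 1350.5, 1792 and 1790.3 (log2 fold change -1.23, SE 0.15, edgeR adjusted p = 1.76e-05), and the rises numbered 3 without dual-depleted replicate 3 and 4 without dual-depleted replicate 2 or WT replicate 2 or 3. Genes of the integrated stress response, which amino acid shortage activates, varied with the libraries used. Of 43 tested 14 fell and 4 rose, 27 fell without dual-depleted replicate 1, and 9 fell without dual-depleted replicate 3. Asns, the asparagine synthetase, had 9246, 8247 and 7514 in WT siGLO and 4469.5, 3188 and 2959 in dual-depleted libraries (log2 fold change -1.24, SE 0.15, edgeR adjusted p = 1.22e-05), while Cebpb (0.99), Stc2 (0.82) and Slc7a3 (0.59) rose and the cystine transporter gene Slc7a11 rose by 3.17 (SE 0.56, edgeR adjusted p = 0.000381, 2.59 without dual-depleted replicate 1 and 3.99 without WT replicate 1).

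Of 19 DNA methylation genes tested 6 rose (31.6%) and 5 fell (26.3%), beside 22.6% and 21.3% of all genes. The de novo methyltransferase gene Dnmt3b had 5779, 5014 and 4204 normalized counts in WT siGLO and 21678, 17799 and 15596 in dual-depleted libraries (log2 fold change 1.88, SE 0.15, edgeR adjusted p = 2.03e-07). Of the genes for enzymes that oxidise methylcytosine, Tet2 fell from 3688, 3019.6 and 2404 to 1215, 1108 and 979.9 (log2 fold change -1.46, SE 0.14, edgeR adjusted p = 1e-06) and Tet3 rose from 518, 537 and 493 to 958, 1004 and 1259 (log2 fold change 1.06, SE 0.13, edgeR adjusted p = 1.24e-05), while Tet1 fell by 0.73 (SE 0.17, edgeR adjusted p = 0.00321). Zfp57, which protects methylation at imprinted loci, fell from 6780.4, 6491 and 5881 to 1937, 1685 and 1668 (log2 fold change -1.86, SE 0.14, edgeR adjusted p = 1.25e-07), and the other falls were Gadd45b (-2.25) and Apobec1 (-0.70). Of 45 imprinted genes 15 rose and 11 fell: the noncoding RNAs Meg3 (1.50), Rian (1.46) and Mirg (1.71) of 1 cluster on chromosome 12 rose together, as did Ndn (1.99) and the cell cycle inhibitor Cdkn1c (1.37), while H19 and Igf2, neighbours on chromosome 7, fell by 2.60 (SE 0.29, edgeR adjusted p = 5.47e-06) and 1.46 (SE 0.15, edgeR adjusted p = 2.81e-06). Of 336 zinc finger genes named Zfp with a number, 104 (31.0%) rose and 37 (11.0%) fell, beside 22.6% and 21.3% over all genes. Among Polycomb genes 8 of 31 rose (25.8%) and 9 fell (29.0%). The log2 fold change was 1.01 for Bmi1 and -0.97 for Phf19.

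Among D-type cyclins, which start the cell cycle, Ccnd3 had 4524, 5312 and 4672 normalized counts in WT siGLO and 1269, 1218 and 1437 in dual-depleted libraries (log2 fold change -1.89, SE 0.09, edgeR adjusted p = 1.53e-09), while Ccnd1 rose from 3232, 2459 and 2192 to 5038, 4159 and 4179 (log2 fold change 0.76, SE 0.15, edgeR adjusted p = 0.000757) and their partner gene Cdk6 fell by 1.00 (SE 0.15, edgeR adjusted p = 0.000118). Replication genes fell at 15 of 51 and rose at 4, among them the origin factor Orc1 (-0.61) and the transcription factor gene E2f1 (-0.65). Among the rises were Rfc3, Pold1 and Clspn, between 0.18 and 0.30. Rfc3 lost its call without WT replicate 3, Pold1 without dual-depleted replicate 3 or WT replicate 1, and Clspn without any library but WT replicate 1 (edgeR adjusted p from 0.102 to 0.239). Mitosis genes gave 10 rises and 11 falls among 50, and the rises became 6 without dual-depleted replicate 1, WT replicate 1 or WT replicate 2. DNA damage and repair genes fell at 21 of 54 and rose at 5, with Brca1 at -0.62, the end-joining gene Xrcc5 at -0.63 and, among the rises, Trp53bp1 at 0.68, Msh3 at 0.54, Rad52 at 0.45, Rad51d at 0.42 and Nbn at 0.29 on the log2 scale. Rad52 lost its call without any 1 library but dual-depleted replicate 3, and Nbn was not called without dual-depleted replicate 3 or WT replicate 1 or 3 (edgeR adjusted p up to 0.258 and 0.157). The gene for p53, Trp53, and its targets did not rise as a group. Of 32 tested, 8 fell, while Trp53 (0.31) and the targets Pmaip1 (0.42) and Bax (0.30) rose. None of these 3 rises was called in edgeR without dual-depleted replicate 1, and with other single libraries left out Pmaip1 lost its call without WT replicate 1, Trp53 without WT replicate 2 and Bax without dual-depleted replicate 2 or WT replicate 2 or 3. Cdkn1a, a sensitive target of p53, was at 729.6, 971 and 1147 and 929.5, 647 and 697 and was not called (log2 fold change -0.32, SE 0.18, edgeR adjusted p = 0.169), but was called lower without replicate 1 of either group (-0.50 and -0.48).

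Ephrins, semaphorins and clustered protocadherins, families that act at the cell surface and in axon guidance, gave more rises than falls. Claudins, the proteins of tight junctions, did not, with 1 rise and 4 falls among 10 tested (3 and 2 without dual-depleted replicate 1), nor did the keratins given above. Of 18 ephrin and Eph receptor genes 12 rose and 1 fell, with a median of 0.52. Efnb2, on chromosome 8, had 236, 187 and 175 normalized counts in WT siGLO and 989, 892 and 1037 in dual-depleted libraries (log2 fold change 2.29, SE 0.16, edgeR adjusted p = 4.75e-08), Epha1 rose by 2.05 (SE 0.28, edgeR adjusted p = 3.49e-05, 1.57 without dual-depleted replicate 1) and Efna5 by 1.25 (SE 0.24, edgeR adjusted p = 0.000695). The exception was Efna3, which fell by 0.74 (SE 0.16, edgeR adjusted p = 0.00199), joined by Ephb3 without WT replicate 1 and by Ephb3 and Epha4 without dual-depleted replicate 3. The log2 fold change of Epha4 was -0.27 with all libraries and 0.09 without dual-depleted replicate 1, neither of them called. Semaphorins and plexins rose at 14 of 27 and fell at 6. Sema3e, a secreted guidance cue, went from 401, 343 and 245 to 1431, 1979.5 and 2729 (log2 fold change 2.63, SE 0.21, edgeR adjusted p = 1.85e-07), and Sema5a and Sema5b changed in opposite directions (1.40 and -1.36). The rises became 9 without dual-depleted replicate 2. Ntn1, a netrin that steers axons, fell from 1442, 1527 and 1148 to 356, 266 and 226 (log2 fold change -2.28, SE 0.18, edgeR adjusted p = 1.39e-07). The gene for N-cadherin, Cdh2, had 92.4, 72.0 and 88.9 in WT siGLO and 318, 319.7 and 479 in dual-depleted libraries (log2 fold change 2.14, SE 0.25, edgeR adjusted p = 9.8e-06). Cdh1, the gene for E-cadherin, had 9479, 9934 and 10242 and 12008, 8709 and 6886 and was not called (log2 fold change -0.10, SE 0.15, edgeR adjusted p = 0.628). Its log2 fold change was -0.34, called, without dual-depleted replicate 1 and 0.068, not called, without dual-depleted replicate 3. Of 23 clustered protocadherin genes tested 10 rose and Pcdhgb8 (-0.82) fell, at low counts, and 5 rose without dual-depleted replicate 3. Near-identical exons and shared 3' exons in that family leave the counts of single members uncertain.

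Genes that the study plots as examples inside and outside Super-enhancer Domains, loops that hold a super-enhancer and its target, were chosen on these samples, so their direction is not independent evidence. All 5 examples inside fell. Jam2 went from 2165, 1871 and 1915 to 316, 461 and 661 normalized counts (log2 fold change -2.05, SE 0.18, edgeR adjusted p = 3.29e-07) and Laptm5 from 1092, 1420.5 and 1224 to 385, 233 and 253 (log2 fold change -2.10, SE 0.22, edgeR adjusted p = 2.87e-06), while Enpep had 28.9, 28.4 and 46.4 in WT siGLO and 4.92, 4.15 and 3.03 in dual-depleted libraries, and Tdh and Prdm14 are given above. All 4 examples outside rose, namely App (0.72), Xkr6 (0.86), Sdc3 (0.98) and Slco5a1 (1.63). In App, dual-depleted replicate 1 had 389 normalized counts, below every WT library, and the gene was not called without any 1 of the other 5 libraries (edgeR adjusted p from 0.12 to 0.287). Xkr6 was not called without dual-depleted replicate 1 or 2 or WT replicate 2 or 3 (edgeR adjusted p up to 0.183).

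The dual depletion was then set beside the separate perturbations, which share the WT siGLO libraries with it. A direct comparison with Stag2-KO siGLO gave 924 genes (6.37%) in edgeR, 432 higher (2.98%) and 492 lower (3.39%). With the replicate number as a block, which treats same-numbered libraries as pairs, 2049 genes were called, 1047 higher and 1002 lower. Without the block the count was 1484 with dual-depleted replicate 1 left out, 535 without replicate 2 and 416 without replicate 3. Members of the gene groups divided by how much siStag1 added. Of the 20 naive pluripotency genes 17 were lower in dual-depleted than in Stag2-KO siGLO libraries, with the block as without it, and 1, Mael, was higher (log2 fold change 1.02, SE 0.25, edgeR adjusted p = 0.0282), though not without Stag2-KO siGLO replicate 3. Tfcp2l1 had 4834, 4593 and 4721 normalized counts in WT siStag1, 2800.2, 4688 and 4219.8 in Stag2-KO siGLO and 676, 732 and 702 in dual-depleted libraries, so that the dual-depleted libraries were the lowest (log2 fold change -2.47, SE 0.14, edgeR adjusted p = 1.3e-07 against Stag2-KO siGLO). Esrrb had 9555, 8838 and 9359, 6258, 6029.7 and 7310.1 and 1328, 2139 and 2108 in the same order (log2 fold change -1.81, SE 0.14, edgeR adjusted p = 1.84e-06). Klf2 had 1089.8, 1146 and 1205, 2802, 2270.2 and 2026 and 1237, 931 and 754 (log2 fold change -1.28, SE 0.17, edgeR adjusted p = 0.000382).

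Of 22 primitive endoderm genes 2 were lower in dual-depleted than in Stag2-KO siGLO libraries, Fst (-1.93) and Apoe (-0.37), and 0 were higher, whereas with the block Pdgfra was higher as well. Without Stag2-KO siGLO replicate 1, Pdgfra, Col4a1 and Col4a2 were higher, and Apoe was not called without Stag2-KO siGLO replicate 3. Sox17 had 224, 244 and 250.0 in WT siStag1, 67.6, 25.8 and 25.3 in Stag2-KO siGLO and 51.1, 18.7 and 31.3 in dual-depleted libraries, and the last 2 groups differed by a log2 fold change of -0.23 (SE 0.37, edgeR adjusted p = 0.821). Lama1 had 13859, 12573 and 12677, 4208, 2471 and 3017 and 3451, 1956 and 3046 in the same order (log2 fold change -0.20, SE 0.18, edgeR adjusted p = 0.634). Of the formative genes Lef1 (1.30), Sox3 (1.23) and Sall2 (0.86) were higher than in Stag2-KO siGLO, Wnt8a was lower (-2.43), and Fgf5, at 0.11, did not pass the test (edgeR adjusted p = 0.908). With the block 7 formative genes were higher and 2 lower, and without dual-depleted replicate 1 the counts were 5 and 2. Sall2 was not called without dual-depleted replicate 2 or 3, nor was Wnt8a, whose value was -0.50 without Stag2-KO siGLO replicate 2. Germline and meiosis genes rose at 10 of 35 against Stag2-KO siGLO and fell at none, with 14 rises under the block. The rises numbered 5 without Stag2-KO siGLO replicate 2, 4 without its replicate 3 and 6 without dual-depleted replicate 3. In a fit of these 6 libraries alone only 1 of the 35 rose, and Mael, Apoe, Sall2, Wnt8a and Taf7l lost their calls (edgeR adjusted p from 0.145 to 0.327), while 14 naive genes were lower. The largest germline rise was in Taf7l, a germ cell paralog of a general transcription factor subunit (64.0, 38.6 and 59.9 in WT siStag1, 32.7, 24.7 and 14.8 in Stag2-KO siGLO and 100.3, 63.3 and 50.5 in dual-depleted libraries, log2 fold change 1.56, SE 0.41, edgeR adjusted p = 0.0425), which was not called without Stag2-KO siGLO replicate 2 or 3.

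**Figure D5:**
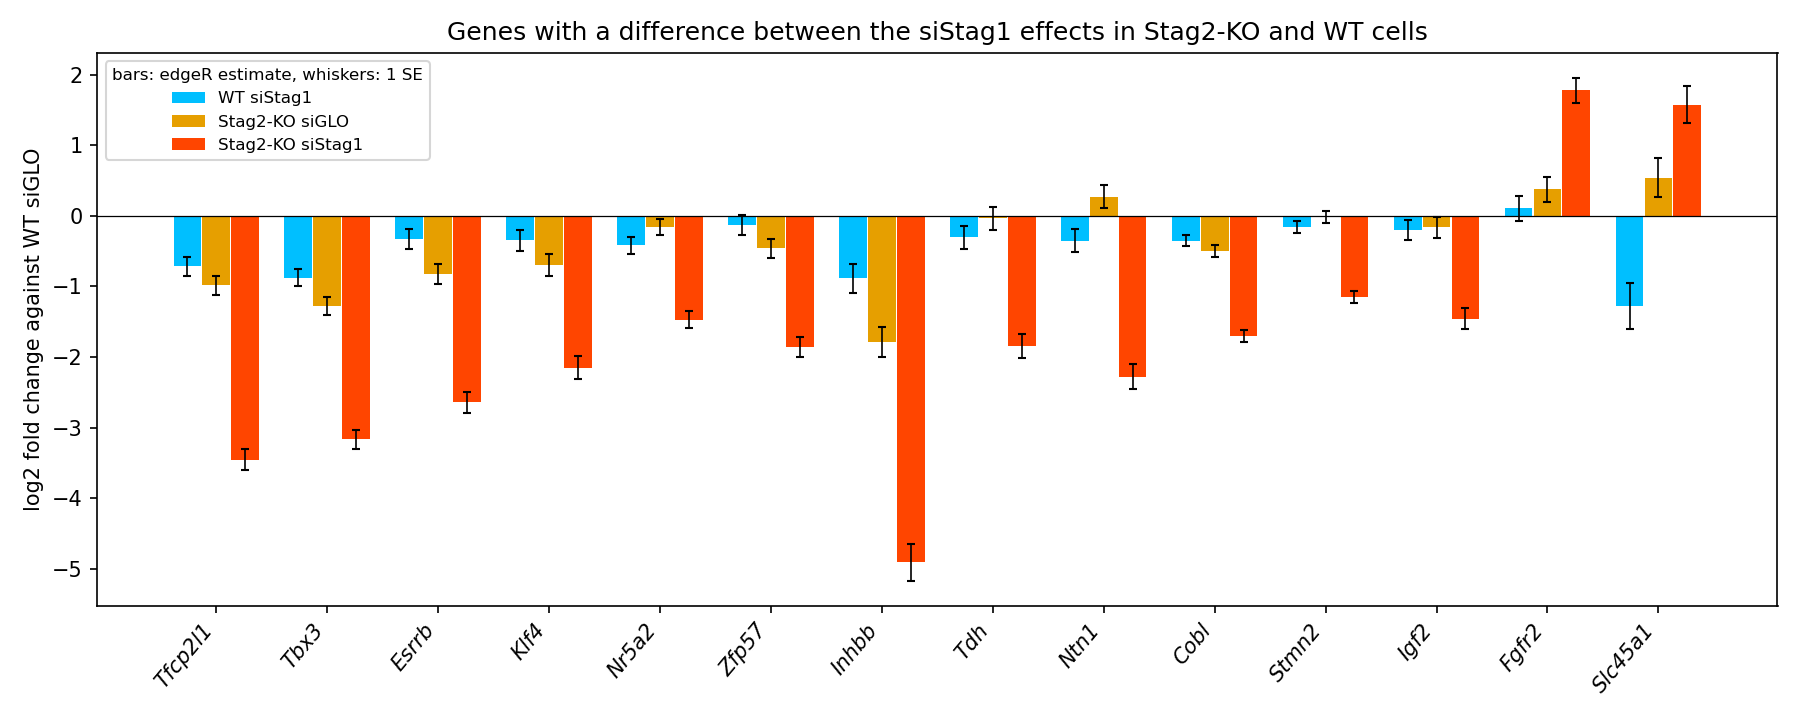
Log2 fold changes against WT siGLO (vertical axis, bars with whiskers of 1 SE) in WT siStag1, Stag2-KO siGLO and dual-depleted cells for 14 of the 23 genes (horizontal axis) whose siStag1 effect differed between Stag2-KO and WT cells. The dual-depleted value is the lowest of the 3 for Tfcp2l1, Esrrb and Ntn1 and the highest for Fgfr2.

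Whether siStag1 acted differently in Stag2-KO than in WT cells was tested directly as an interaction, and 23 genes (0.159%) were called in edgeR, of which 20 had the lower and 3 the higher effect in Stag2-KO cells. Before adjustment 842 genes had a p under 0.05, and DESeq2 called 102. With the replicate number as a block, 138 genes were called. The count was 76 without dual-depleted replicate 1, 13 without WT siGLO replicate 2 or any 1 WT siStag1 library, and 15 without WT siGLO replicate 3. The 23 included 6 of the 20 naive genes, 12 with the block and 3 without WT siGLO replicate 2 or WT siStag1 replicate 1. The siStag1 effect on Tfcp2l1 was -0.71 in WT and -2.47 in Stag2-KO cells, a difference of -1.76 on the log2 scale (SE 0.19, edgeR adjusted p = 0.000703). That on Ntn1 was -0.35 and -2.55 (difference -2.20, SE 0.24, edgeR adjusted p = 0.000703), and Ntn1 counts were 1037, 1272 and 911 in WT siStag1, 1426, 1995 and 1546 in Stag2-KO siGLO and 356, 266 and 226 in dual-depleted libraries. All 3 dual-depleted libraries lay far below every library of the other groups for Ntn1. In the other direction, Fgfr2 was higher in dual-depleted libraries than in all others, at 219.8, 164 and 219, 232, 236 and 257 and 587, 479 and 849.7 in the same order (difference 1.29, SE 0.25, edgeR adjusted p = 0.0567). Its difference was not called without Stag2-KO siGLO replicate 2 or any 1 library of the WT groups (edgeR adjusted p from 0.111 to 0.213).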

How the data were processed

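PolyA RNA-seq libraries of mESCs were compared from gene-level counts, of which the authors deposited 1 file per library with no normalization. Reads of 150 bp were aligned to mm10 with STAR and tested with DESeq2 in the study, per the submitters' processing notes and its methods, whereas the counting tool, the gene annotation and the strand setting are not given in the sources used here, so overlapping and antisense genes cannot be told apart. Each file lists 23412 gene symbols and 4 summary lines, which were left out. In the 6 libraries, lines for reads off any gene held 9.96% to 13.0% and lines for multimapping reads 4.02% to 4.42%.

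Groups were taken from the labels. All 15 libraries were fitted together with the quasi-likelihood test of edgeR 4.0.16 in R 4.3.3, with TMM scaling and the expression filter of edgeR (minimum count 10, minimum total count 15), which kept 14508 genes. P-values were adjusted over all of these with the Benjamini-Hochberg method, with 0.1 as threshold, and all tests were two-sided. Depth of 16309144 to 19005726 counts per library limits precision for genes of few counts. Wild type siGLO libraries serve as controls in each comparison against WT, which are therefore not independent. The contrasts were dual-depleted against WT siGLO, dual-depleted against Stag2-KO siGLO, and the change after siStag1 in Stag2-KO minus that in WT cells. Deviations from the group means were compared to see whether replicate numbers pair the libraries. Across genes, same-numbered Stag2-KO siGLO and siStag1 libraries had r = 0.709, 0.269 and 0.597. Same-numbered WT siGLO and siStag1 libraries had r = 0.435, 0.214 and 0.516. Dual-depleted replicate 2 correlated more with Stag2-KO siGLO replicate 3 (r = 0.404) than with replicate 2, so pairing by number is uncertain there. The main fits used no block, and the block is given as an alternative. No pair of libraries within the WT siGLO or the dual-depleted group agreed within sampling noise. The fits were tested on simulated data.

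The members and gene lists were chosen with earlier results of these data known. Genes were named by rule: cohesin genes, the 12 largest rises and the 12 largest falls of called genes that averaged 50 or more normalized counts and whose groups did not overlap, up to 6 called members per list with the largest change, key markers, and the study's example genes. Other genes named, such as exceptions within a list and members gained or lost when a library was left out, were chosen after their values were seen. Some genes that the rule names are not reported here. Positions are from GENCODE M21 on mm10 and promoters from RefSeq (GRCm38.p6). Alternatives were DESeq2 1.42.0, edgeR with the size factors of DESeq2 or with unscaled library sizes, other filters (none, or 10 counts required in every library), a fit of the compared groups alone, a replicate block, a threshold of 0.05, and each library left out. Tables and plots used Python 3.11.15, pandas 2.3.3 and matplotlib 3.10.9.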

Additional observations from a re-analysis of the deposited data

Results flagged for a closer look

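The effect of siStag1 differed between Stag2-KO and WT cells for 23 genes in edgeR (adjusted p under 0.1), and those reported are given here as the log2 effect in Stag2-KO cells minus that in WT cells. A negative value means that the dual-depleted libraries were lower than the separate perturbations add up to. Among the naive pluripotency genes the differences were -1.76 for Tfcp2l1, -1.49 for Esrrb, -1.26 for Zfp57, -1.11 for Klf4, -1.02 for Tbx3 and -0.90 for Nr5a2. Genes for secreted proteins included Inhbb (-2.24), the netrin gene Ntn1 (-2.20), Fgf17 (-1.24) and the imprinted growth factor gene Igf2 (-1.10). The unnamed transcript 2210409E12Rik differed by -2.16 and the threonine dehydrogenase gene Tdh by -1.50. Dnahc8 (-1.42), Kifc3 (-1.15), Stmn2 (-0.98), Epb4.9 (-0.95), Cdyl2 (-0.93), Cobl (-0.86) and Nmnat2 (-0.81) were lower too. The differences above 0 were 2.31 for Slc45a1, 1.29 for the receptor gene Fgfr2 and 1.11 for Tns1. As a share of all genes tested the 23 were 0.159%, and the number depended on single libraries, from 13 to 76.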

How the results depend on the processing

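For dual-depleted against WT siGLO cells, 6364 called genes became 5166 to 6218 with 1 library left out, 5804 in a fit of the 6 libraries alone, 5504 with at least 10 counts in every library, 5208 at an adjusted p under 0.05, 6491 in DESeq2 and 7792 with a replicate block. For these groups same-numbered libraries correlated at 0.376, 0.028 and 0.342, not every library with its own number best, so the pairing was not used. Leaving out both Stag2-KO replicate 1 libraries, chosen after seeing the data, gave 6736. Scaling by library size alone put 54.2% of calls higher in place of 51.4%. Against Stag2-KO siGLO the 924 genes became 224 in a fit of those libraries alone, 548 at an adjusted p under 0.05, 2049 with the replicate block and 416 to 1484 with 1 library left out. The 23 genes of the interaction became 14 in a fit of the libraries compared, 102 in DESeq2, 138 with the block, 80 without both replicate 1 libraries and 13 to 76 with 1 library left out. The causes of these shifts were not tested. Of 245 named genes tested, 225 were called against WT siGLO, and 22 of these lost the call in at least 1 alternative, between 9 and 14 in each of the fits without 1 library. The block changed no call among the genes named with values for the comparison against Stag2-KO siGLO. None of these called genes changed sign in the alternatives run. Uncalled genes that did were Cdh1 (-0.34 to 0.068 with 1 library left out), Ctcf (-0.0038 to 0.11, and -0.0036 without both replicate 1 libraries), Epha4 (-0.74 to 0.087, and 0.087), Foxd3 (-0.089 to 0.99, and -0.089) and Smc3 (-0.069 to 0.023, and 0.0041 with library size alone). Genes of few counts set the limit of depth.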
